A study of Mus musculus with 8 samples.

Results

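The genes that anchor the epidermis were followed through 4 peak lists from newborn mouse skin: Itga6, Itgb4, Itga3, Col17a1, Dst, Plec, Lama3, Lamb3 and Cd151, that is 9 of the 26180 genes with a curated RefSeq transcript. The genes were chosen by name as components of the hemidesmosome and its basement membrane, and each was examined at its promoters, along its gene body and in the 20 kb on either side. A promoter here is the window that opens 1 kb before a transcription start site (TSS) and closes 100 bp after it (mm10), and a peak counted when it overlapped by at least 1 bp. All material was total epidermis lifted from the back skin of wild-type mice at postnatal day 0.5, with no further treatment named. The labels give 8 samples and 6 antibodies; the lists used were MOF, the acetyltransferase of lysine 16 of histone H4, from ChIPseq, and Rfx2, a transcription factor of ciliary genes, H3K4me3 and H3K27Ac, both histone marks, from Cut&Run. The labels tie the H3K4me3 and H3K27Ac lists to the second library of each mark, but the H3K4me3 list is not named as a repeat, so its library is not certain. Each antibody had 1 list, so no spread between replicates could be measured, nothing was tested, and intervals are exact (Clopper-Pearson) 95% intervals for counting error only. The lists hold no read counts, so the depth behind a single peak is not known. The study's methods state the reads of each library, and of the 4 antibodies Rfx2 had the fewest. Total epidermis mixes basal and upper layers with other resident cells, and a peak present in few cells cannot be told apart from one that is weak in many.

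Hemidesmosomes are the adhesion plaques by which basal keratinocytes hold on to the basement membrane. In them, alpha6beta4 integrin and the transmembrane collagen XVII bind laminin outside the cell, and the plakins plectin and dystonin tie both to keratin filaments inside. Of the histone marks, H3K4me3 is typical of promoters in use but not limited to them, while H3K27Ac also sits at enhancers in use. Of 6 keratinocyte markers, 4 carried H3K4me3 at the promoter (Krt5, Krt14, Krt15 and Trp63) and 2 carried H3K27Ac (Krt14 and Krt15), and Krt1 and Krt10 carried neither mark. None of 5 leukocyte markers carried either mark. H3K4me3 lay at 2 of 5 melanocyte, 2 of 5 fibroblast, 1 of 5 endothelial and 1 of 3 Merkel cell markers, and H3K27Ac at 1 of these (Pmel, a melanocyte gene).

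Peaks of H3K4me3 and H3K27Ac, both typical of active promoters, reached into the promoter window of nearly all of the anchoring genes. The share with MOF in that window was close to that of all genes. H3K4me3 lay at the promoter of 8 of 9 (88.9%, 95% interval 51.8 to 99.7%), against 54.0% of all annotated genes. Where the centre of the peak had to lie in the window, the count was 3 of 9, against 25.5% of all genes. H3K27Ac lay at the promoter of 8 of 9, against 44.1% of all genes. The gene without H3K4me3 in the window was Itga6, and the gene without H3K27Ac was Col17a1. MOF lay at the promoter of 2 of 9, Dst and Lama3 (22.2%, interval 2.81 to 60.0%), against 23.7% of all genes. Both carried H3K4me3 as well, so 2 of the 8 members with H3K4me3 had MOF, where 42.0% of all 14132 genes with H3K4me3 did. In the window used, the MOF share of the 9 members lay near the 23.7% of all genes, and its interval held that value. No interval was computed for the 2 of 8. The count depended on the window, and it was 4 of 9 with 500 bp on either side of the TSS, against 24.3% of all genes, and 4 of 9 with 2.5 kb on either side, against 27.8%. Rfx2 was at 0 of 9 promoters, which allows a share of up to 33.6%, against 1.21% of all genes, and the part of the smaller number of Rfx2 reads in this was not tested.

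Within the gene bodies, all 9 members held H3K4me3 and all 9 held H3K27Ac, where 58.4% and 49.2% of all genes did. A gene body opens at the TSS, so a promoter peak that runs past the TSS counts here too. For H3K4me3 at Itgb4, Itga3, Lamb3 and Cd151, the only peak in the body was such a promoter peak. The same held for H3K27Ac at Lamb3 and Cd151. MOF was in the body of 4 of 9 (Itga6, Dst, Plec and Lama3), against 34.7%, and Rfx2 in none, against 0.833%. With the 20 kb on either side included, H3K4me3 and H3K27Ac were near 9 of 9 members each (background 72.1% and 65.7%), MOF near 7 of 9 (58.3%) and Rfx2 near 0 of 9 (2.88%). Itga3 and Lamb3 had no MOF peak anywhere in that region. In all, the 9 regions held 73 H3K27Ac, 61 H3K4me3, 22 MOF and 0 Rfx2 peaks. Long genes catch more peaks by length alone, and Dst covers 400.0 kb against 4.12 kb for Cd151. The median gene body was 45.7 kb over the members and 13.5 kb over all genes.

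**Figure D1:**
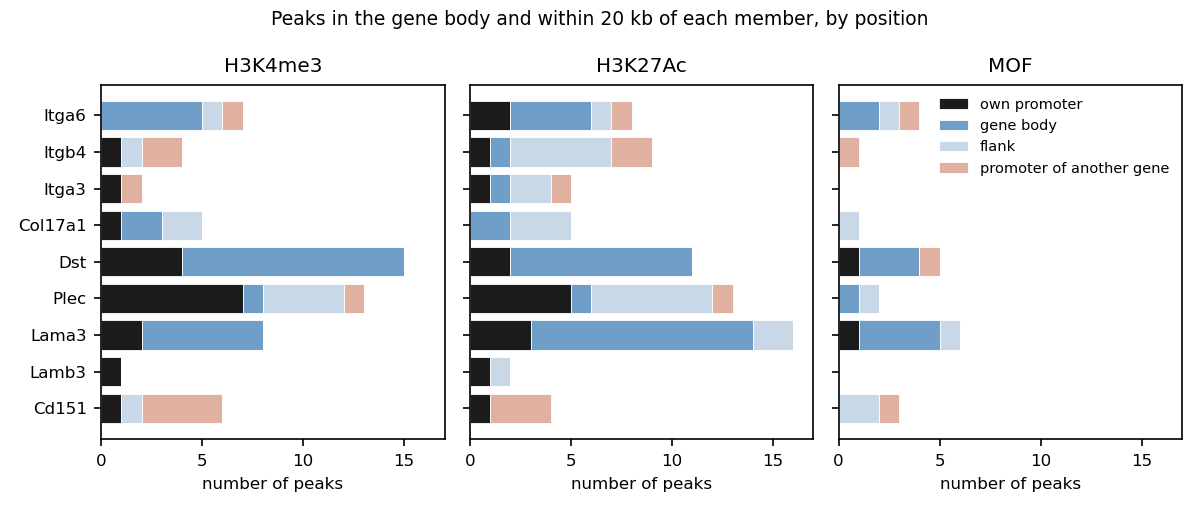
Number of H3K4me3, H3K27Ac and MOF peaks in the gene body and within 20 kb of each of the 9 members, split by position (own promoter, gene body, flank, promoter of a neighbouring gene). Lama3 held the most H3K27Ac peaks (16) and Lamb3 the fewest (2), and MOF bars are short, with 2 peaks in all at a member's own promoter.

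Itga6 and Itgb4 encode the 2 chains of the hemidesmosomal integrin. Itga6 (chr2:71786939-71858427, plus strand) was the gene missed by the promoter window, but by a short distance. Its H3K4me3 peak, 1883 bp wide with a fold enrichment of 6.60 (the height over the local background that the authors' peak caller estimated), began 184 bp after the TSS. A MOF peak 778 bp wide began 161 bp after the TSS, with a score of 616 (median of the MOF list 582). The MOF score is on an unstated scale and ranks peaks within that list only. So Itga6 had both H3K4me3 and MOF just inside the gene and outside the window, and with a window of 500 bp on either side of the TSS it counts for both. An H3K27Ac peak of 1147 bp (fold enrichment 4.84) ran from 46 to 1192 bp after the TSS, and a smaller one of 374 bp (2.90) lay 0.3 kb before it. A second cluster was seen in an intron 19.3 kb along the gene, where a MOF peak of 1056 bp (score 294) overlapped H3K4me3 peaks of 228 and 268 bp (fold enrichment 4.32 and 4.11) and an H3K27Ac peak of 295 bp (3.06). The highest H3K4me3 peak of the Itga6 region stood alone, 359 bp wide with a fold enrichment of 9.48 in an intron 65.5 kb from the TSS, where no H3K27Ac or MOF peak overlapped it. The other MOF peaks were 446 bp wide (score 540) at 78.6 kb and 1139 bp wide (score 717) at 86.5 kb. The latter covered the promoter of the neighbouring gene Pdk1 together with the highest H3K27Ac peak of the region (fold enrichment 8.94).

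Itgb4 (chr11:115974725-116008411, plus strand) had both H3K4me3 and H3K27Ac across its TSS and no MOF. Its H3K4me3 peak was 2443 bp wide (fold enrichment 4.89) and reached from 487 bp before to 1955 bp after the TSS, and its H3K27Ac peak was 1553 bp wide (4.17). H3K27Ac was spread along the upstream side, in 5 further peaks between 4.1 and 20.1 kb before the TSS with fold enrichments of 2.66 to 3.36. The nearest MOF peak to the TSS was 40836 bp away, outside the region. The region itself held 1 MOF peak, the highest in score near any member (1349, rank 939 in the list), and it lay 49.4 kb downstream of the TSS at the promoter of H3f3b, a histone H3.3 gene. The highest H3K4me3 and H3K27Ac peaks of the region (fold enrichment 12.28 and 6.64) were at the promoter of Galk1, another neighbour.

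Itga3, the alpha chain of the laminin-binding alpha3beta1 integrin, is annotated with 2 start regions (TSSs less than 500 bp apart were taken as 1 region). The upstream start, of isoforms 1 and 3, had an H3K4me3 peak of 2390 bp (fold enrichment 3.58) from 370 bp before to 2019 bp after its first TSS, and no H3K27Ac or MOF. The internal start, of isoform 2, had no H3K4me3, and the edge of a 570 bp H3K27Ac peak (3.19) lay 942 bp before it. The gene thus counts for both marks, but at different starts. The nearest H3K27Ac peak to that first TSS was 3514 bp away, in an intron (245 bp, fold enrichment 2.30). The highest H3K27Ac peak of the region (7.72) was 20.2 kb upstream, at the edge of the region examined, and the highest H3K4me3 peak (8.29) was at the promoter of Pdk2. The upstream start has a TSS for each of its isoforms, and the window around the later one (95076714) is shown because the start carried wide H3K4me3 without H3K27Ac. Words searched are in capitals: on either strand, the GC box GGGCGG, the CCAAT box, the TATA box TATAAA, the AP-1 words TGACTCA and TGAGTCA (each the reverse complement of the other), the CRE TGACGTCA, the p63 motif and the X-box, which Rfx factors bind. Each window has 250 bases before and 50 from the TSS on, from RefSeq (GRCm38.p6).
Itga3, later TSS of the upstream start, chr11:95076665-95076964, minus strand: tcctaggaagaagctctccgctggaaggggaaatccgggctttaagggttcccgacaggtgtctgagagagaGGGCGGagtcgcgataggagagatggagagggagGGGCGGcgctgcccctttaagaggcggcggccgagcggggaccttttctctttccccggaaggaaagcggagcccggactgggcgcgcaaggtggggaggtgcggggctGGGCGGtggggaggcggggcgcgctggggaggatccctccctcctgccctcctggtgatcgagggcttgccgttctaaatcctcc
It held 3 GC boxes, the nearest 35 bp before the TSS of this window, and was 66.7% G and C, above 85.0% of the 32851 promoters in the table. A GC box was found in 35.7% of those promoters.

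Cd151, a tetraspanin that associates with laminin-binding integrins, lies in a dense stretch of genes (chr7:141467362-141471481, plus strand). H3K4me3 (1983 bp, fold enrichment 6.03) and H3K27Ac (2010 bp, 4.02) covered both of its start regions with nearly the same borders. That H3K27Ac peak was wider than 99.6% of the list. The 3 MOF peaks nearby all lay outside the gene, with scores of 579, 475 and 625 at 19.9 and 8.9 kb upstream and 13.7 kb downstream of the upstream start. The first of them was at the promoter of Rplp2, a ribosomal protein gene. The highest peaks of the region belonged to neighbours too, with an H3K4me3 fold enrichment of 10.32 at Pnpla2 and an H3K27Ac fold enrichment of 6.76 at Polr2l and Tspan4. The sequence of the upstream start is given to set beside that of Col17a1, since both hold a p63 match.
Cd151, upstream start, chr7:141467112-141467411, plus strand: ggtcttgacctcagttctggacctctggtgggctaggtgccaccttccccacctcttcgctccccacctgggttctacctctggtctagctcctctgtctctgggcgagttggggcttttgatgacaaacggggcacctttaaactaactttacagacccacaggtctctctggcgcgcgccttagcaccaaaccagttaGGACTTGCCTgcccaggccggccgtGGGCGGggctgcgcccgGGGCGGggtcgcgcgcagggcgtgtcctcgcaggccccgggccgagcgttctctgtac
It held 2 GC boxes, 25 and 8 bp before the TSS, and 20 CpG dinucleotides, more than 73.5% of promoters.

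Col17a1 encodes collagen XVII, the transmembrane collagen of the plaque (chr19:47646341-47692042, minus strand). With each member taken at its widest promoter peak of H3K4me3, that of Col17a1 was the narrowest. Its H3K4me3 was broken into 3 peaks of 782, 981 and 339 bp, with fold enrichments of 5.12, 4.42 and 2.21, of which only the first reached the promoter window. At 782 bp this peak was narrower than those of most genes with H3K4me3, since 16.5% had a narrower one. No H3K27Ac peak touched the window, and the nearest was 1731 bp from the TSS, inside the gene (209 bp, fold enrichment 3.87). Of the 14132 genes with H3K4me3 at the promoter, 20.2% likewise had no H3K27Ac there. H3K27Ac was instead found upstream, in peaks of 747 bp (5.11), 692 bp (3.05) and 522 bp (2.70) at 6.6, 8.3 and 16.2 kb before the TSS. The peaks at 6.6 and 8.3 kb overlapped H3K4me3 peaks of 697 and 200 bp (4.51 and 4.14). The peak at 16.2 kb overlapped the only MOF peak of the region, which was 373 bp wide with a low score (321).
Col17a1, chr19:47691993-47692292, minus strand: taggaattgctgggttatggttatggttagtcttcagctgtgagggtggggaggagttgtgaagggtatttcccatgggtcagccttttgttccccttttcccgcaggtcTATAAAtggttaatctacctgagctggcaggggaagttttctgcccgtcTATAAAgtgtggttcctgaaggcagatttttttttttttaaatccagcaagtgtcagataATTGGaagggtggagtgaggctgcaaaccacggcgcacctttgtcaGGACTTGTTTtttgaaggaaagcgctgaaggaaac
The window is shown for its 2 TATA boxes, which began 140 and 91 bp before the TSS. It was the only one of the 9 member windows in the table with this word, against 13.6% of all promoters. It was 46.3% G and C, with 5 CpG dinucleotides and no GC box. Matches to the p63 motif were seen here and at Cd151, and in 8.36% of all promoters.

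The plakins Dst and Plec have many starts, and these were not marked alike. Dst (chr1:33908225-34308662, plus strand), which encodes dystonin, has 3 start regions. Isoform 1 (7717 residues) starts furthest upstream, back to back with Bend6. There, H3K4me3 peaks of 706 and 328 bp (fold enrichment 7.71 and 6.47), an H3K27Ac peak of 203 bp (4.53) and the only MOF peak in a Dst promoter window (377 bp, score 330, from 1262 to 886 bp before the TSS) were found. That score was low, with 5.63% of MOF peaks below it, and a second MOF peak (889 bp, score 383) began 409 bp after the Dst TSS, inside Dst, where it overlapped the promoter window of the oppositely transcribed Bend6. The start of isoforms 2 and 3, further in, had H3K4me3 of 516 bp (7.54) and H3K27Ac of 221 bp (5.09). The start of isoform 4, the shortest protein at 2639 residues, was of another kind. Its H3K4me3 peak was 3090 bp wide (5.23), from 185 bp before to 2904 bp after the TSS, wider than 99.7% of the list. No H3K27Ac peak overlapped it, the nearest being 9319 bp from the TSS, and the nearest MOF peak was 76061 bp away. The epithelial form of dystonin is known to be much shorter than its neural and muscle forms. The 2 windows below are shown because the same gene has a narrow, H3K27Ac-bearing start and a wide one without H3K27Ac.
Dst, isoforms 2 and 3, chr1:34011345-34011644, plus strand: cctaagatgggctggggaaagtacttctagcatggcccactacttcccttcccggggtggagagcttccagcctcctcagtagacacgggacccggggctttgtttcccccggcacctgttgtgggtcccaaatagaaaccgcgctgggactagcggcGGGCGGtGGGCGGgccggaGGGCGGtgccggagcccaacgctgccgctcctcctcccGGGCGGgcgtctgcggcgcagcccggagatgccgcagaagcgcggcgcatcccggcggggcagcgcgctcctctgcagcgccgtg
Dst, isoform 4, chr1:34160010-34160309, plus strand: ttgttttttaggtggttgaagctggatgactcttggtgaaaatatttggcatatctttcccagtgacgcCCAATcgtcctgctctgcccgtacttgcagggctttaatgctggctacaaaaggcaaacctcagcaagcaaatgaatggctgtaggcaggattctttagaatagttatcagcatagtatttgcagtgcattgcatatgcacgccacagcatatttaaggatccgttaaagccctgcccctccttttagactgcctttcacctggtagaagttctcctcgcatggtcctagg
They differ in composition. The window of isoforms 2 and 3 was 70.3% G and C with 31 CpG dinucleotides and 4 GC boxes, and that of isoform 4 was 46.0% G and C with 6 CpG dinucleotides, no GC box and 1 CCAAT word 181 bp before the TSS. The median over all promoters was 52.7% G and C and 7 CpG dinucleotides. Of these 2 windows, the one with fewer CpG had the wider H3K4me3 peak, and no window of the isoform 1 start was analysed here.

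Between the starts of isoforms 2 and 3 and of isoform 4, Dst held a row of intronic peaks. Of its 11 H3K27Ac peaks, 9 lay in the gene body outside promoters, with fold enrichments from 3.26 to 4.90, all but 1 of them between 165.5 and 242.4 kb from the upstream TSS. The last of these ended 9319 bp ahead of the isoform 4 start. Of the 4 MOF peaks inside the gene outside the promoter window, 3 lay further in, with scores of 370 at 97.9 kb, 996 at 165.7 kb and 571 at 328.9 kb, and each overlapped H3K4me3. The peak at 97.9 kb overlapped the highest H3K4me3 peak of Dst (933 bp, fold enrichment 7.88). The MOF peak at 165.7 kb, the highest of Dst in score (rank 2233), also overlapped H3K27Ac. The following window, 100 bp on either side of an H3K27Ac summit 240.1 kb into Dst (318 bp, fold enrichment 3.67), is the only one of the 49 H3K27Ac summits outside promoters in the 9 regions with an AP-1 word, shown in capitals.
Dst, intron, chr1:34148201-34148401, plus strand: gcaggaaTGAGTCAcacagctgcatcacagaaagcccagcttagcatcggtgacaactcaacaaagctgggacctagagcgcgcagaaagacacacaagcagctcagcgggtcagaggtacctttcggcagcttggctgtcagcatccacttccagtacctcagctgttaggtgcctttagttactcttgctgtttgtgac
Among all 19929 H3K27Ac summits outside promoters, 7.89% held an AP-1 word. The p63 motif was at 3 of the 49 member summits (6.12%), in Itgb4, Plec and Lama3, against 9.49%. Of the summits at a member's own promoter, 2 of 16 (12.5%) held an AP-1 word, against 2.49% of all H3K27Ac summits at promoters. They were at the starts of Plec isoform 1a and Lama3 isoform 3A. Over all 73 member summits the word was at 4 (5.48%), against 5.99% of all H3K27Ac summits. It was at 0 of the 9 member promoter windows, against 5.2% of all promoters. These counts are small, and no difference was tested. The X-box and the CRE were at none of the 49 summits outside promoters (0.341% and 0.336% of all such summits).

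Plec (chr15:76170974-76231378, minus strand) encodes plectin, whose isoforms differ in the opening exon. Its 9 start regions had H3K4me3 in 7 and H3K27Ac in 5, and none had MOF or Rfx2. The promoter peaks of H3K4me3 were 233 to 1608 bp wide with fold enrichments of 1.99 to 5.28, and those of H3K27Ac were 281 to 1592 bp wide (2.33 to 4.13). At the start of isoform 1a, known as the plectin of keratinocyte hemidesmosomes, H3K4me3 was 1608 bp wide but low (fold enrichment 2.97, with 3.31% of the list below it), and H3K27Ac was 805 bp (2.40). At isoforms 1c and 1f, the starts furthest upstream, H3K4me3 of 1444 bp (5.28) and 399 bp (3.06) lay wholly before the TSS, without H3K27Ac in the window. Isoforms 1d and 1e had neither mark. The peak at the 1b start had the lowest H3K4me3 fold enrichment of all member promoters (1.99), and that at 1g was 2.35. All the promoter peaks of Plec thus lay below the median fold enrichment of the list, 6.63. Both MOF peaks of the region flanked the 1c start, 253 bp wide (score 440) 1.5 kb before it and 279 bp wide (score 720) 0.5 kb inside the gene, 389 bp from the TSS. Its highest H3K4me3 and H3K27Ac peaks (9.43 and 7.11) were at the promoter of the neighbour Grina.

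Lama3 and Lamb3 encode the alpha and beta chains of the epidermal laminin of the basement membrane. Lama3 (chr18:12333934-12583013, plus strand) has 2 starts, and they differed in MOF. At the upstream start, of the long isoform 3B (3330 residues), H3K4me3 was 1608 bp wide (fold enrichment 7.24), H3K27Ac was 452 bp (6.62), and MOF was 12719 bp away. At the internal start, of isoform 3A (1724 residues), the alpha chain usual in epidermis, a MOF peak of 1411 bp (score 612) ran from 1330 bp before to 80 bp after the TSS. H3K4me3 at this start was 2626 bp wide (5.42), wider than 98.9% of the list, and extended to 2313 bp after the TSS. H3K27Ac peaks of 674 and 479 bp (5.01 and 3.72) both overlapped the MOF peak. Of the 22 starts, this was the only one with peaks of MOF, H3K4me3 and H3K27Ac that all reached into the promoter window and overlapped one another. Peaks of all 3 also overlapped just after the window at Itga6 and before it at Plec isoform 1c.

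Lama3 also had the most H3K27Ac peaks of the 9 genes, 16 in the region, of which 11 were in the gene body outside promoters. Of the genes with H3K4me3, 99.7% had fewer. The strongest of the intronic peaks, 6.78, 6.71 and 6.26 in fold enrichment, lay 139.4, 25.6 and 129.3 kb from the upstream TSS, all of them overlapping H3K4me3 peaks of 304 to 542 bp. The further MOF peaks were 781 in score at 12.8 kb upstream, the highest of the region, and 456, 690, 326 and 357 at 25.4, 34.6, 121.2 and 178.8 kb into the gene. Of these 5, all but the one at 121.2 kb overlapped H3K27Ac.

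Lamb3 (chr1:193301994-193343878, plus strand) was the reverse, with its marks confined to the promoter side. Its region held 1 H3K4me3 peak (1443 bp, fold enrichment 7.72), 2 H3K27Ac peaks (1470 bp with 4.64 across the TSS, and 432 bp with 3.82 at 2.0 kb upstream) and no MOF. MOF came no closer to the TSS than 58556 bp. Its H3K4me3 fold enrichment was the highest at a start among the members, next to 7.71 at Dst isoform 1. The window is shown because it held none of the words searched.
Lamb3, upstream TSS, chr1:193301744-193302043, plus strand: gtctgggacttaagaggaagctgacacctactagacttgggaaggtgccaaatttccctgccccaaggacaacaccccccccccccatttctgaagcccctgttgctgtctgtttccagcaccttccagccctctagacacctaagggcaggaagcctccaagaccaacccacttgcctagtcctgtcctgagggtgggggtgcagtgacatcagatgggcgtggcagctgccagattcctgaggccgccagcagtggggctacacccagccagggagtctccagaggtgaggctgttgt
It had 2 CpG dinucleotides at 59.3% G and C, and only 14.1% of promoters had fewer.

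**Figure D2:**
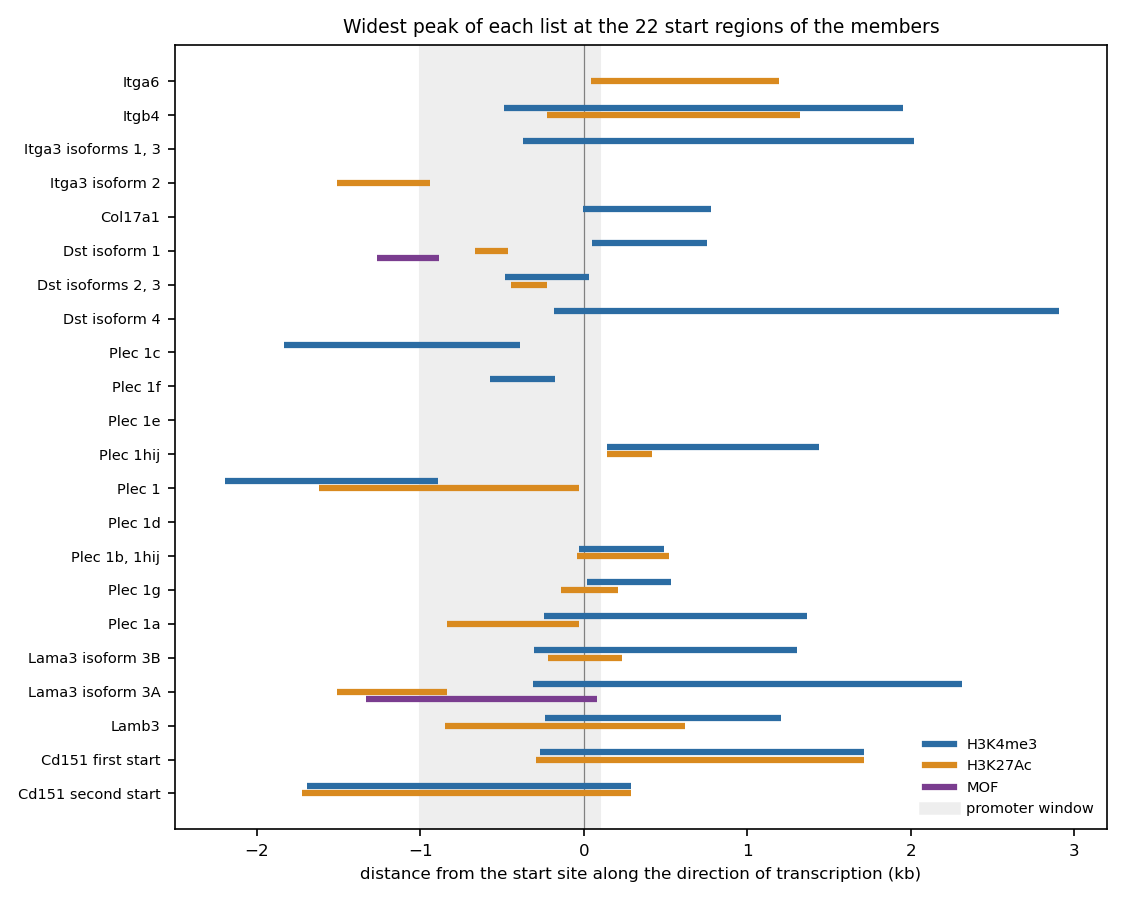
The widest peak of each list at the 22 start regions of the members, as bars along the distance from the TSS in kb, with the promoter window in grey. H3K4me3 was at 18 of the starts, H3K27Ac at 15 and MOF at 2 (Dst isoform 1 and Lama3 isoform 3A), and the longest bar is the 3090 bp H3K4me3 peak of Dst isoform 4, with no H3K27Ac beside it. Plec supplies 9 of the 22 starts, and starts close together can share a peak.

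Set side by side over the 22 start regions, H3K4me3 was at 18, H3K27Ac at 15, MOF at 2 and Rfx2 at 0. These starts are not separate observations, since Plec supplied 9 of them and both Cd151 starts shared the same peaks. The share over all annotated start regions was not computed, so the counts have no background beside them. Itgb4, Lamb3, Cd151 and Lama3 had both H3K4me3 and H3K27Ac at every start. Dst, Plec and Itga3 had starts with only one of them, and at the lone starts of Itga6 and Col17a1 the window held H3K27Ac and H3K4me3, respectively.

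**Figure D3:**
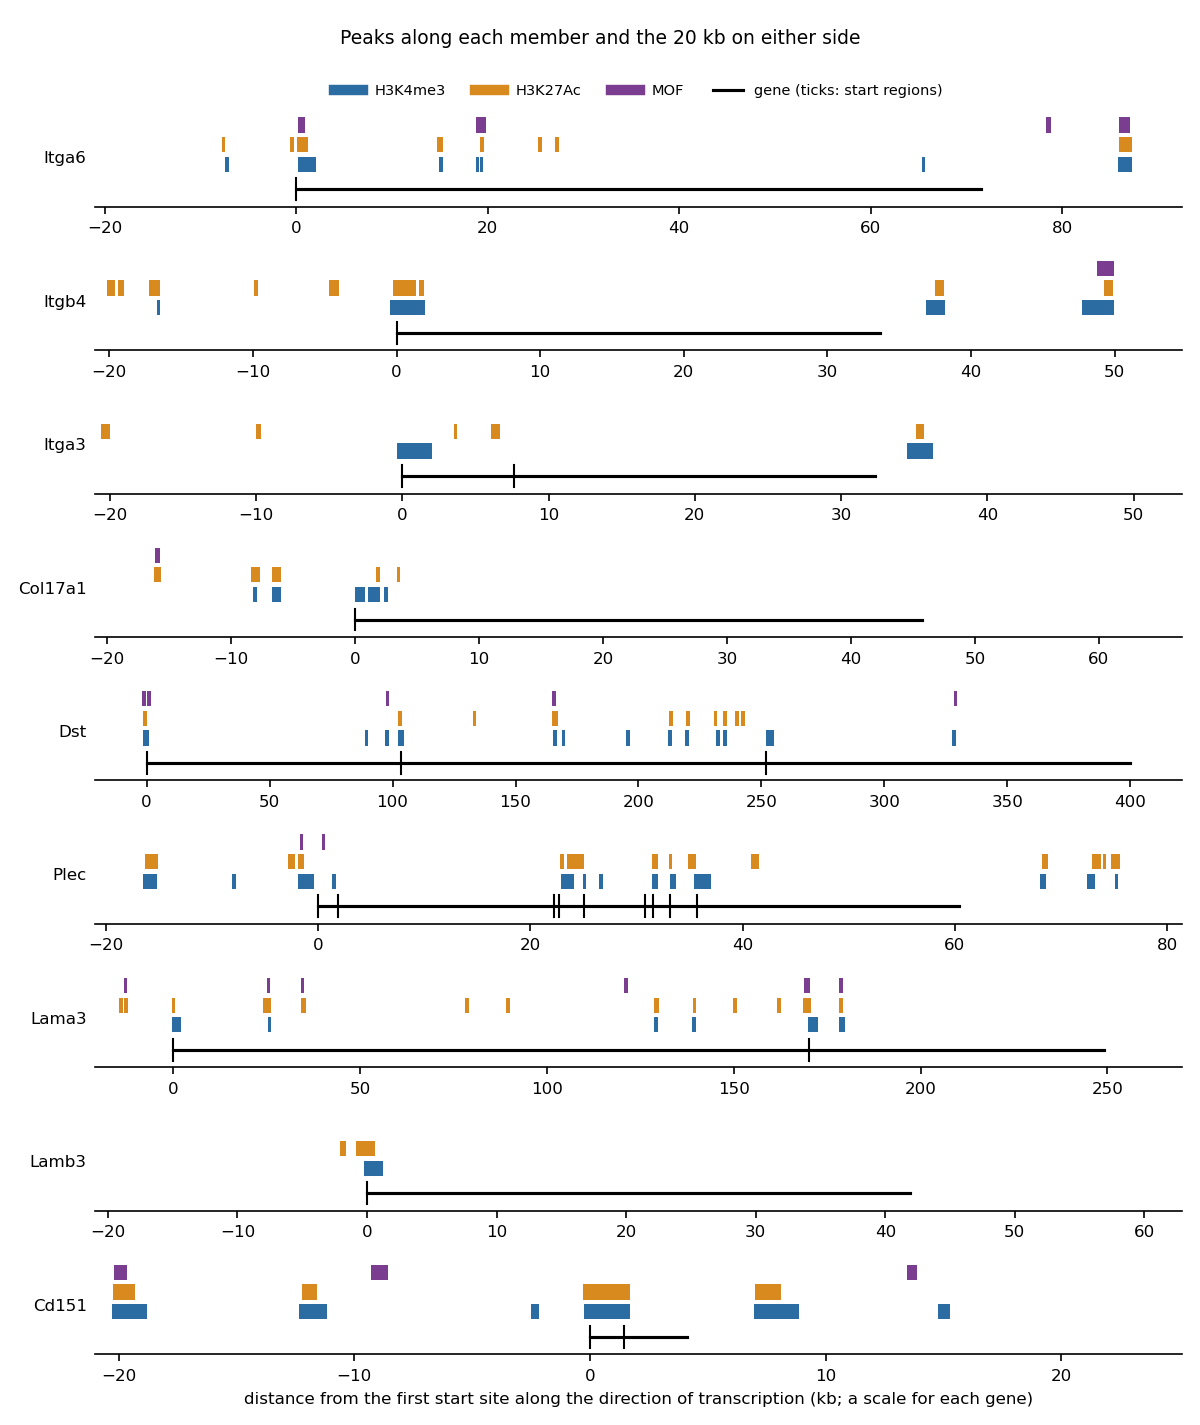
Peaks along each of the 9 members and the 20 kb on either side, in kb from the upstream TSS, with a scale for each gene, ticks at the start regions, and short peaks drawn at a minimum width. Dst and Lama3 have intronic H3K27Ac peaks ahead of the internal start, and Lamb3 has none past its promoter.

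Where a promoter carried H3K4me3, the widest peak over all the starts of a member was usually wide and low. The widest promoter peak of each of the 8 members was 3090 bp at Dst, 2626 bp at Lama3, 2443 bp at Itgb4, 2390 bp at Itga3, 1983 bp at Cd151, 1608 bp at Plec, 1443 bp at Lamb3 and 782 bp at Col17a1. Their median was 2186 bp, against 1319 bp over all 14132 genes with H3K4me3. A gene with more starts has more chances of a wide peak, and 6 of the 9 members have more than 1 TSS. The members among genes with more than 1 TSS had a median of 2186 bp, against 1363 bp over all 3013 such genes with H3K4me3. With the most upstream TSS of each gene alone, the median was 1526 bp over 8 members, against 1315 bp over 13671 genes, as the wide peaks of Dst and Lama3 are at internal starts. Over all starts, only Col17a1 was below 1319 bp. The median fold enrichment of the same peaks was 5.18, against 7.98, and all 8 members lay below the latter. Width and fold enrichment are not separate facts here, because wide peaks were low in the list as a whole, with a median of 5.65 for promoter peaks of at least 2000 bp and 3.88 for those of at least 3000 bp, against 7.87 for all 13315 promoter peaks.

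**Figure D4:**
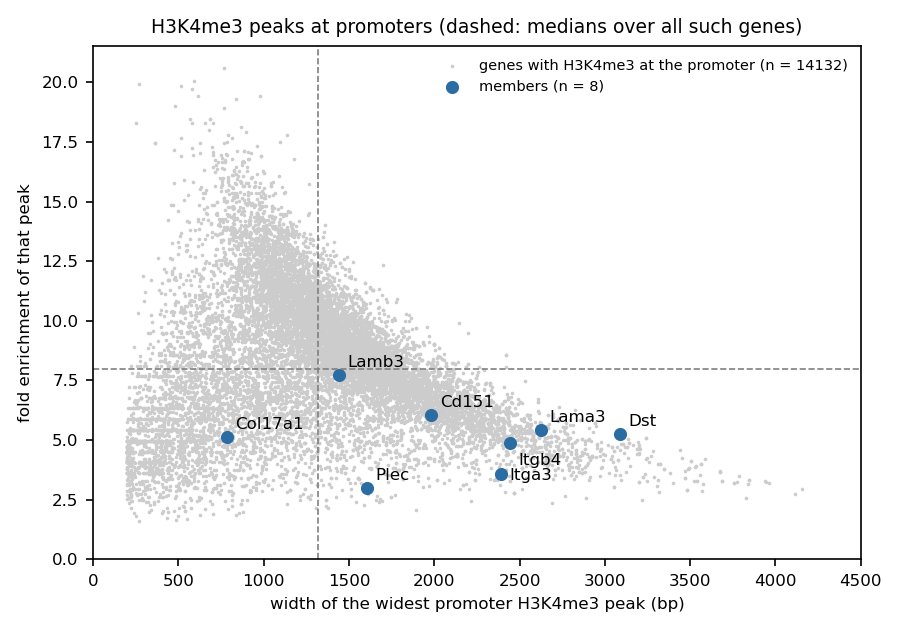
Width in bp against fold enrichment of the widest promoter H3K4me3 peak for 14132 genes (grey) and 8 members (blue), with dashed lines at the medians of all genes (1319 bp and 7.98). All 8 members lie below the fold enrichment line and 7 lie to the right of the width line, Col17a1 being the exception.

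Of the 13315 H3K4me3 peaks at promoters, 1373 (10.3%) were at least 2000 bp wide, and 97.1% of these overlapped H3K27Ac. The members held 4 such peaks. Those of Itgb4 and Lama3 overlapped H3K27Ac, and those of Dst isoform 4 and Itga3 were among the 40 that did not. Of the 89 promoter peaks of at least 3000 bp, 2 lacked H3K27Ac, and the Dst peak was one of these. This comparison was chosen after the values were seen.

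Counted per length, H3K27Ac peaks were denser around most members than around other genes. The density was 12.95 peaks per 100 kb at Plec, 12.21 at Itgb4, 9.07 at Cd151, 7.18 at Itga6, 6.91 at Itga3, 5.83 at Col17a1, 5.53 at Lama3, 2.5 at Dst and 2.44 at Lamb3. The median of 6.91 compares with 1.97 over all genes and 3.4 over the genes with H3K4me3 at the promoter. Plec and Itgb4 stood above 97.0% and 96.1% of the latter, and Dst and Lamb3 above 41.6% and 40.5%. Of the 73 peaks, 16 were at a member's own promoter, 29 in a gene body, 20 in a flank and 8 at another gene's promoter, including 3 of the 4 peaks around Cd151. Without peaks at a promoter of any gene, the median was 4.48 per 100 kb, against 0.77 over genes with H3K4me3. The peaks themselves were low, as 55 of the 73 had a fold enrichment below the list median of 4.91, and 44 of the 61 H3K4me3 peaks were below 6.63.

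Most MOF peaks around the members lay outside promoter windows, as in the list as a whole. Of the 22 MOF peaks, 2 were at a member's promoter, 10 in a gene body, 6 in a flank and 4 at the promoter of a neighbour (Pdk1, H3f3b, Bend6 and Rplp2). That makes 6 of 22 at the promoter of any gene, against 29.8% of the whole MOF list. Among those counted in a gene body or at a neighbour, 3 began close to a member's own TSS, 161 bp from it at Itga6, 389 bp at Plec isoform 1c and 409 bp at Dst, and with 500 bp on either side of the TSS the members with MOF were 4 of 9. H3K4me3 overlapped 13 of the 22 (59.1%) and H3K27Ac 13 of the 22, where 41.5% and 38.6% of the whole MOF list did so. In the gene bodies, 7 of 10 MOF peaks overlapped H3K4me3, outside any annotated promoter window. They included the 3 further into Dst and the Itga6 peak that began 161 bp from the TSS. The share over all MOF peaks outside promoters was not computed, so this count has no background beside it. The scores of the 22 peaks were not high, with a median of 555.5 against 582 for the list, and 13 of 22 below the latter.

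Other genes of the basement membrane and of adhesion to it, 31 in number, were set beside the members. MOF was at the promoter of 7 of 31 (22.6%, interval 9.59 to 41.1%), among them Lamb1, Lamc1, Hspg2, Itgb1, Ilk and Bcam. Rfx2 was at 0 of 31 and, within 20 kb, near none. H3K4me3 was at 28 of 31 and H3K27Ac at 25 of 31. Hspg2 and Itga9 were among the 3 without H3K4me3. At Hspg2, which encodes perlecan, a 2517 bp peak (fold enrichment 4.91) began 268 bp after the TSS, outside the window as at Itga6. Itga9 had none within 99276 bp.

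The 16 desmosome genes, which join keratinocytes to each other, were examined in the same way. H3K4me3 was at 15 of 16 promoters, all but Dsc1, H3K27Ac at 13 of 16, MOF at 5 of 16 (Dsc1, Dsc3, Jup, Pkp4 and Evpl; 31.2%, interval 11.0 to 58.7%) and Rfx2 at 0 of 16. Their median H3K4me3 width was 2215 bp, near the 2186 bp of the members, and that of the other basement membrane genes was 1905 bp. The median fold enrichment of the same peaks was 5.22 for desmosome genes and 5.89 for the other basement membrane genes, against 5.18 for the members. The median H3K27Ac density was 5.40 per 100 kb for desmosome genes and 3.77 for the other basement membrane genes, against 6.91 for the members, with ranges that overlapped. These are descriptions of 1 library per mark, and whether the lists differ was not tested.

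**Figure D5:**
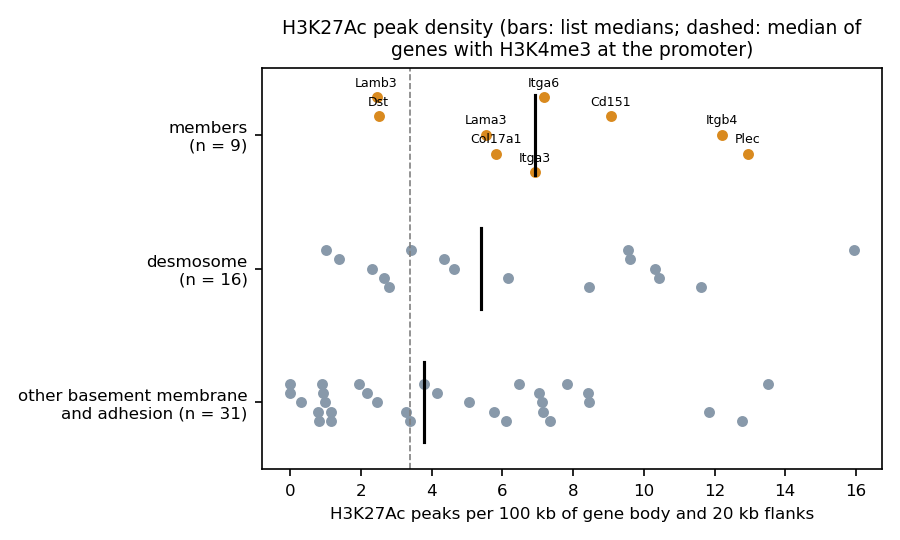
H3K27Ac peaks per 100 kb of gene body and 20 kb flanks for the 9 members, 16 desmosome genes and 31 other basement membrane and adhesion genes, each dot a gene, with bars at the list medians (6.91, 5.40 and 3.77) and a dashed line at 3.4, the median of genes with H3K4me3 at the promoter. The 3 lists overlap, and Dst and Lamb3 lie left of the dashed line.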

How the data were processed

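Peak lists of 4 libraries of wild-type P0.5 total epidermis were used, 1 per antibody. As the study's methods describe, the authors aligned reads to mm10 with Bowtie2 and called peaks per library with MACS2. The deposited Rfx2, H3K4me3 and H3K27Ac lists give the fold enrichment, which is a ratio of the signal to the caller's background, and the −log10 q-value of each peak; the deposited MOF list gives only a score of unstated scale, and it is longer than the call the study describes, so whether it is their final call is unknown. Whether a control library was used is not given in the sources used here. Heights were compared only within a list.

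Peaks were joined to curated RefSeq transcripts of GRCm38.p6 (the assembly named mm10), and 0 peaks ended beyond a chromosome. Python 3.11.15, pandas 2.3.3 and scipy 1.17.1 were used, and overlaps were checked on simulated peaks with bedtools 2.31.1. No column of an unmatched sample was used. RefSeq promoter sequences were found for 5 of the 9 members (9 windows), and the entries of Itga6, Itgb4, Plec and Lama3 were missing. H3K27Ac summit windows were read from the genome. All members are named, with every promoter peak or its range, the highest peak of each list, and each MOF peak; of the other lists, genes with MOF and genes without H3K4me3 at the promoter are named, except for an item that is counted but not reported here. Members and lists were chosen with earlier results of these data known. Alternatives varied the window, flank, overlap rule, peak threshold and transcripts, and left out Dst; leaving out every peak at a promoter, and the most upstream TSS alone, were added after the data were seen.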

Additional observations from a re-analysis of the deposited data

How the results depend on the processing

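No paired analysis was possible because there was only 1 list of peaks per antibody. Rfx2 stayed at 0 under every alternative run. The count of members with H3K4me3 at the promoter (8) fell to 3 when the centre of the peak had to lie in the window, and was 8 or 9 otherwise; the cause was not tested. The MOF count at promoters (2) was 4 with 500 bp and with 2.5 kb on either side of the TSS, and 1 by the peak centre or in the upper 50% of the list by score, so it depends on the window, the overlap rule and the score threshold. H3K27Ac at promoters ranged from 6 to 9. In the gene bodies and flanks, the upper 50% by significance or score left 20 H3K4me3, 33 H3K27Ac and 9 MOF peaks, 50 kb flanks gave 34 MOF peaks, and leaving out peaks at any promoter left 34 H3K4me3 peaks. The median H3K27Ac density of 6.91 per 100 kb was 7.64 with 10 kb flanks, 7.00 with 50 kb flanks, 4.15 in the upper 50% and 4.48 without peaks at promoters, and as covered bases it was 3.32% of the region. Each was above that of genes with H3K4me3 (3.74, 2.94, 2.04, 0.77 and 2.43%). The median H3K4me3 width of 2186 bp was 2416 bp with peaks within 1 kb joined, 1983 bp with 2.5 kb on either side and 1526 bp with the most upstream TSS alone, against 1483, 1318 and 1315 bp over all genes. The number of reads behind a single peak is not known, the reads of the libraries differ, with the fewest for Rfx2, and a missing peak cannot be told apart from low depth.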

Other observations

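The wide H3K4me3 peaks without H3K27Ac at Dst isoform 4 and Itga3 were not alone in the list. Of the 40 promoter peaks at least 2000 bp wide that overlapped no H3K27Ac peak, others were at Krt5, a keratin of basal keratinocytes (2710 bp, nearest H3K27Ac 1606 bp away), at Jup, the desmosomal and adherens junction protein plakoglobin (2849 bp, 1156 bp away), at Mir205hg, the host gene of a microRNA of skin epithelium (2868 bp, 2121 bp away), at Aqp3, the epidermal water and glycerol channel (2319 bp, 388 bp away), and at Frem1, a basement membrane protein on the adhesion list (2169 bp, 190337 bp away). These 5 were picked after their values were seen, and no test was made of whether epidermal genes are frequent among the 40. The set also held genes with other known roles, such as Edn1 (3191 bp), Runx2 (2282 bp), Ncam1 (2407 bp) and Lgr5 (2004 bp). MOF overlapped the peak at Jup and not those at Dst, Itga3, Krt5, Mir205hg, Aqp3 or Frem1.

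At Itga6 and Hspg2, H3K4me3 began 184 and 268 bp after the TSS, and at Plec isoform 1c and 1f it ended 393 and 178 bp before it. The annotated TSS and the edge of the mark were thus apart at each of these starts, and no data on the start of the transcript were used here.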
